A study of Homo sapiens with 3 samples.

Results

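The 41 genes described here encode proteins that carry a cell through G2 and mitosis, out of 19775 genes on the array. They were taken from a list of G2 and mitosis genes, and every probe set that the array's annotation assigns to exactly 1 of them was used, 78 of 54613 in all. RNA came from HCT116, an established human colorectal carcinoma cell line, infected with lentivirus carrying UHRF1 hairpin 2 (UHRF1 shRNA-2, 1 array), UHRF1 hairpin 5 (UHRF1 shRNA-5, 1 array) or a scrambled hairpin as control (1 array). All the cultures went through 6 days of puromycin before harvest, the control included. The study asked which transcripts depend on UHRF1, a protein that reads hemimethylated DNA and histone H3. No hairpin and no control had a repeat array, so the 2 hairpin arrays are the only replicates of UHRF1 depletion, and differences of hairpin sequence, culture and array are mixed in the spread between them.

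In G2, CDK1 bound to A-type and B-type cyclins builds up under inhibitory phosphorylation, and CDC25 phosphatases release it to start mitosis. Kinetochores then hold chromosomes on spindle microtubules while the spindle checkpoint keeps the anaphase-promoting complex (APC/C), a ubiquitin ligase, inactive. Once it is active, cyclin B and securin are destroyed, sister chromatids part and the contractile ring divides the cell. Transcripts of these genes peak late in the cell cycle, through the MuvB complex with B-MYB and FOXM1, and their sum is often read as a measure of proliferation.

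UHRF1 itself read 6.20 with hairpin 2 and 6.67 with hairpin 5, against 8.54 on the control array (log2 levels, its only probe set), so the targeted transcript was lower on both hairpin arrays. The array medians lay between 2.98 and 3.04, and the few arrays limit the precision. Markers of colorectal epithelium were present: 7 of 8 lay above the level of 3.28 used as the lower bound for a tested gene, and the exception was VIL1 (3.12 with hairpin 2 and 3.11 with hairpin 5, against 3.13 on the control array). The 4 leukocyte markers and 5 of 7 fibroblast and endothelial markers lay below that bound on average, with COL1A1 and PECAM1 above it. The 6 interferon-induced genes among the markers were listed because earlier results of these data showed them higher with hairpin 2. Their high level there is therefore no separate finding. The 6 had a median level of 10.24 with hairpin 2 and 5.43 with hairpin 5, against 3.98 on the control array. Their part in any member's difference between the hairpins was not tested.

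As a group, the mitotic genes stayed close to the control. With a gene represented by its probe set of highest mean, all 41 lay above the bound, and 36 of them (87.8%) were within 1.5-fold of the control with both hairpins, where 80.9% of the 11865 genes tested were. Hairpin minus control on the log2 scale, the median was −0.02 for hairpin 2 and −0.09 for hairpin 5, beside 0.03 for hairpin 2 and −0.06 for hairpin 5 over all genes tested. Where 2 differences stand together, that of hairpin 2 comes before that of hairpin 5, and a probe set with a mean level at or above the bound is called expressed. Lower than the control with both hairpins were 20 of 41 (48.8%, against 32.3% of all genes tested). Higher with both were 11 (26.8%, against 29%), and 10 lay on different sides (24.4%, against 38.7%, equal values included). The share of lower members depended on the processing: after cyclic loess it was 36.6%, against 32.7% of all genes tested, and with the probe sets of a gene averaged it was 39%, against 30.8%. Above the 60th percentile of expression it was 50% of 40 members, against 34.4% of 7912 genes. The difference in share was not tested, since all members are measured against the same control array. No member passed limma's test over all genes (0 of 41 at an adjusted p of 0.05, 0% of all genes tested), and 1 had an unadjusted p under 0.05, the kinesin KIF14, where 2.33% of all genes did. KIF14 was also the 1 member at least 1.5-fold lower with both hairpins (2.44% of members, 1.59% of all genes tested), and 0 were at least 1.5-fold higher with both (0.759%). Nor was any member at least 1.5-fold higher with a single hairpin: 0 with hairpin 2, where 5.93% of all genes tested were, and 0 with hairpin 5, where 2.84% were. The arrays measured RNA of whole cultures, so a smaller share of cells in G2 and mitosis and less transcript per such cell cannot be told apart.

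**Figure D1:**
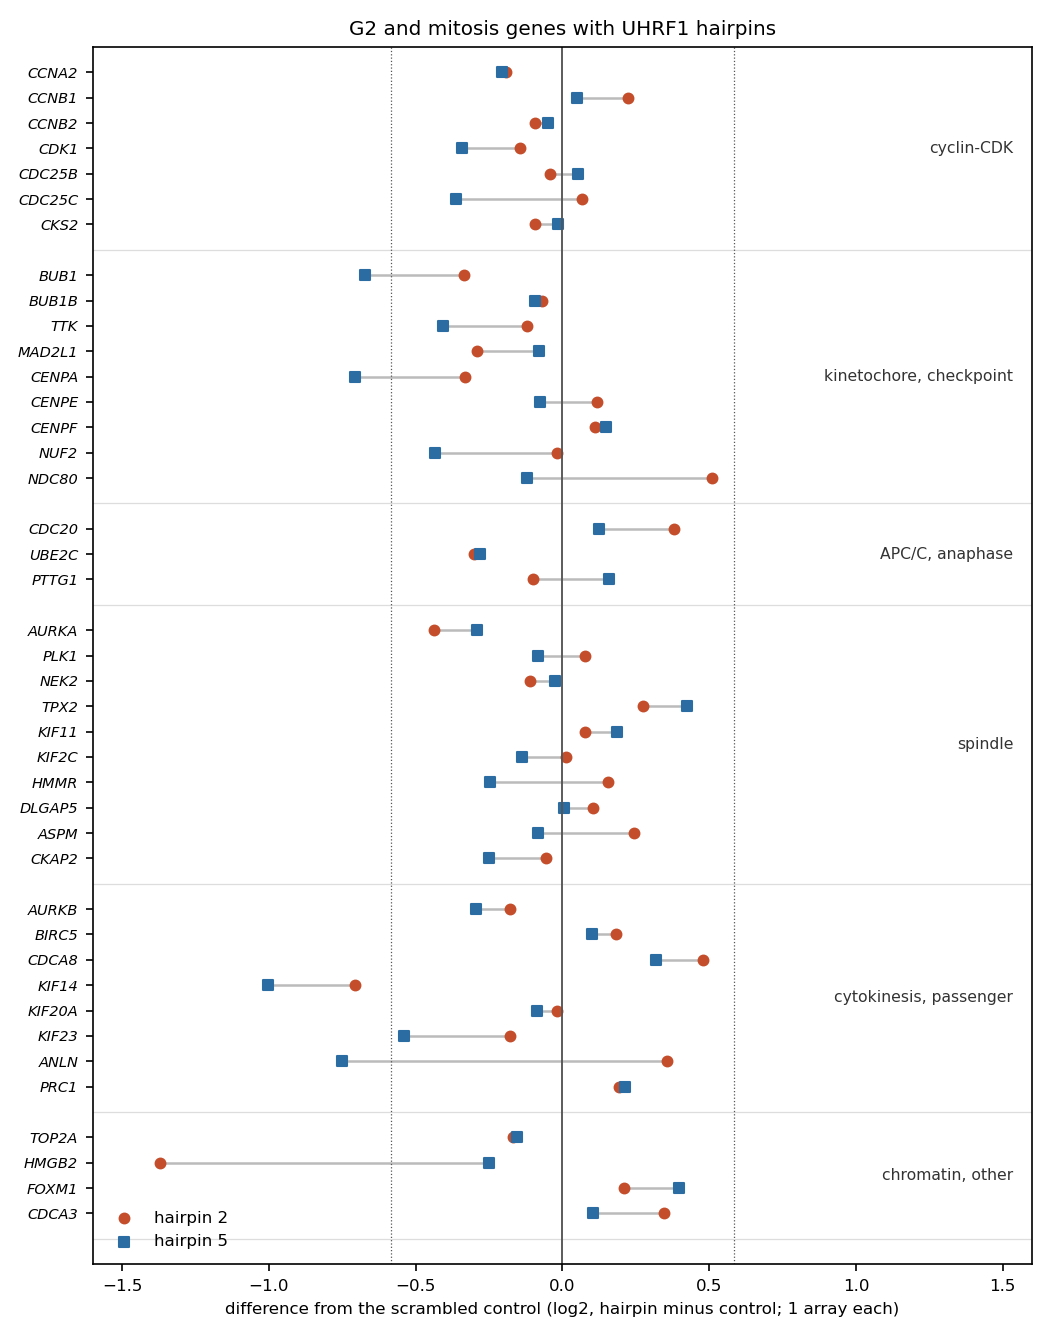
Difference of each of the 41 genes from the scrambled control (x axis, log2, hairpin minus control) with hairpin 2 (circles) and hairpin 5 (squares), 1 array each, grouped by role; dotted lines mark 1.5-fold. Most points lie between the dotted lines, KIF14 lies beyond the lower line with both hairpins, and HMGB2 and ANLN have the longest distance between hairpins.

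The promoters of these genes are shown for letters that were not read in choosing the members. The cell cycle genes homology region (CHR), TTTGAA, is the site through which the MuvB complex holds such genes, and the CCAAT box is bound by NF-Y. A high share of CHR letters among such genes is therefore no independent result. Both were searched on both strands in RefSeq promoter windows of GRCh38.p14, which run from 250 bases before to 50 bases after each annotated start. Of the 34 members with a window, 23 held TTTGAA or its reverse complement (67.6%), against 18.2% of 27305 genes. These 27305 were all genes with a window, whether on the array or not. A CCAAT box or its reverse complement was present in 27 members (79.4%, against 39.7% of genes), and both motifs in 19 (55.9%, against 7.26%). In the 60 bases just before the start, a stretch chosen after the matches were seen, 13 members had a CHR match (38.2%, against 3.42%). Among 109 other genes of the mitotic machinery with a window, 47.7% held the CHR letters and 64.2% a CCAAT box. An E2F-like set (TTTCCCGC, TTTGGCGC, TTTCGCGC and their reverse complements) was searched with them and was found in 2 members, CDK1 and CENPA (5.88%, against 3.3% of genes and 15.6% of the other mitotic genes), in neither case overlapping another match; it is not marked in the sequences or the plot. In 1 member, CDCA8, a CHR match and an inverted CCAAT match overlap. CENPE, KIF2C and CKAP2 held neither set of letters in their windows. BIRC5, AURKA, TPX2, UBE2C, TTK, HMGB2 and FOXM1 are named only.

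The 110 bases before the start are given for 8 members, 5′ to 3′ on the gene's own strand, with CHR and CCAAT matches in capitals. CCNB2 (chr15:59105036-59105145, plus strand), PLK1 (chr16:23678779-23678888, plus strand) and PRC1 (chr15:90994536-90994645, minus strand) show the usual arrangement of a CCAAT box upstream of a CHR. CDCA8 (chr1:37692406-37692515, plus strand) and ANLN (chr7:36389752-36389861, plus strand) are shown for their values below, as are CENPA (chr2:26785946-26786055, plus strand), KIF14 (chr1:200620752-200620861, minus strand) and BUB1 (chr2:110678064-110678173, minus strand).
CCNB2: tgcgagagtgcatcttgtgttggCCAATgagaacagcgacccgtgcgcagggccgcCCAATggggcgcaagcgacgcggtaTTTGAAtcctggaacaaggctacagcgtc
PLK1: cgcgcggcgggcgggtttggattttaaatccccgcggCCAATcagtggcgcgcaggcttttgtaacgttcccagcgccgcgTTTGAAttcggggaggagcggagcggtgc
CDCA8: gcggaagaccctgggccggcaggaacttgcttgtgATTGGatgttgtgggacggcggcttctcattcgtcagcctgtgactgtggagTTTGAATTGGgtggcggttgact
PRC1: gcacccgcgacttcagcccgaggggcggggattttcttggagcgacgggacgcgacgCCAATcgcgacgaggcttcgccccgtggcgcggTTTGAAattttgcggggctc
ANLN: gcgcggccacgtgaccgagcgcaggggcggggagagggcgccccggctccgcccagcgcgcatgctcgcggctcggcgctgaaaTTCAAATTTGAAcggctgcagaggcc
CENPA: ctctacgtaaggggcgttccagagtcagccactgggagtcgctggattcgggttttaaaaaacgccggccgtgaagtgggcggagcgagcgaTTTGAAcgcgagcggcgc
KIF14: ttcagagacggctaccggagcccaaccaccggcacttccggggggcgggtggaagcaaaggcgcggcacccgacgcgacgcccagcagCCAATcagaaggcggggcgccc
BUB1: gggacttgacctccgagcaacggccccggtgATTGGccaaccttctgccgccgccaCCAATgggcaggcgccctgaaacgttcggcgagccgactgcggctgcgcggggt
ANLN has 2 adjoining CHR matches in opposite orientation and no CCAAT box in this stretch, while BUB1 has 2 CCAAT matches and no CHR match. In KIF14 the 1 CCAAT box is upstream and the CHR match begins just after the start. Members of both directions were found with and without the CHR letters. With them, 10 of 23 members lay below and 7 above the control with each hairpin, and the median difference was 0.08 for hairpin 2 and −0.08 for hairpin 5. Without them, 6 of 11 lay below and 1 above, with medians of −0.06 for hairpin 2 and −0.09 for hairpin 5. The 1 above was CCNB1, whose dimmer probe set was lower with both hairpins. Over all genes tested 32.3% lay below and 29% above, with medians of 0.03 for hairpin 2 and −0.06 for hairpin 5. The difference between members with and without the letters was not tested. A match describes these letters in this window and does not show binding.

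**Figure D2:**
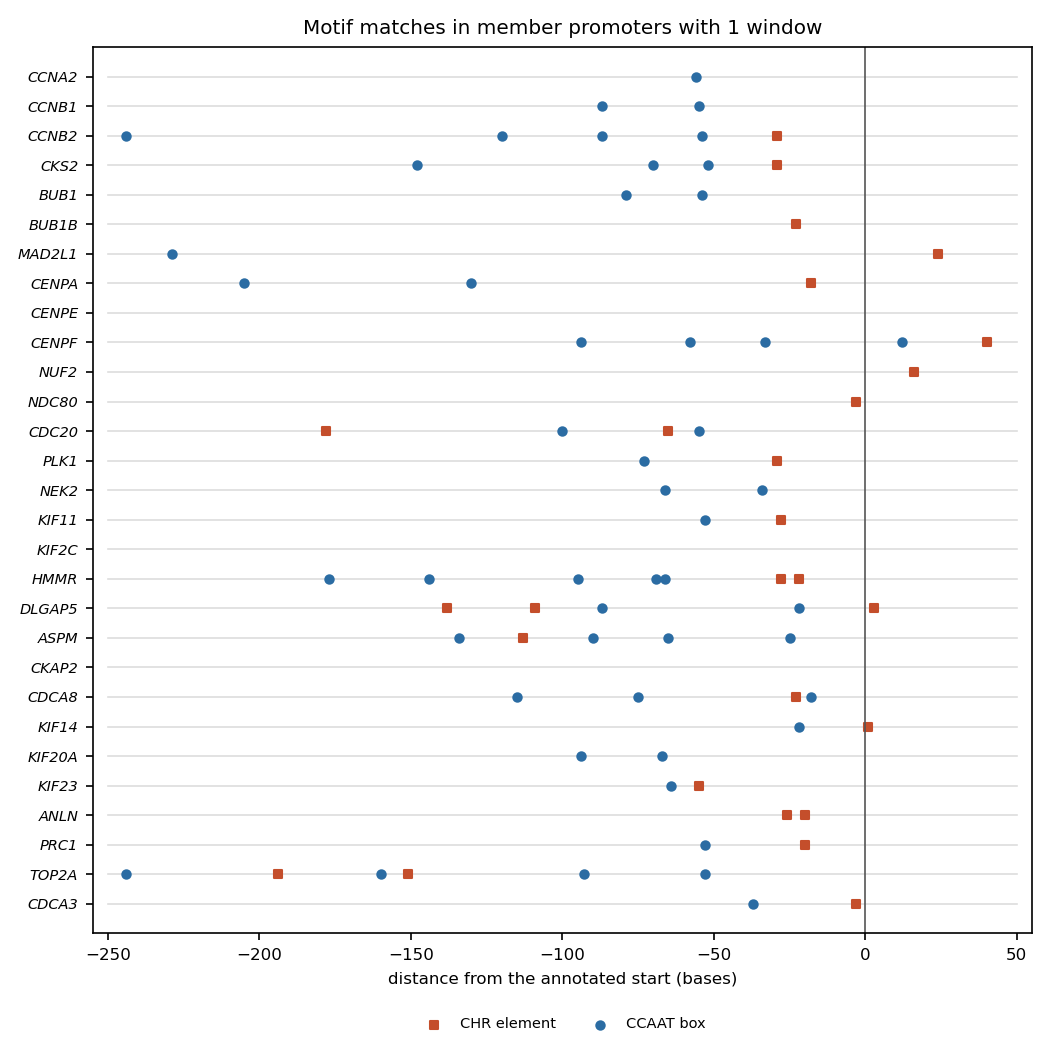
Positions of CHR (squares) and CCAAT (circles) matches, by first base, in the promoters of the 29 members with 1 window; the x axis is the distance from the annotated start in bases, and the vertical line is the start. CHR matches lie mostly close to the start and CCAAT boxes mostly upstream of them.

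All 7 cyclin-CDK genes lay within 1.5-fold of the control with both hairpins, where 80.9% of all genes tested did. With each hairpin 4 lay on the lower side (57.1%, against 32.3% of all genes tested) and 1 on the higher (14.3%, against 29%). The other 2 were split, and the medians were −0.09 for hairpin 2 and −0.05 for hairpin 5. CDK1, the kinase that drives mitotic entry, read 8.84 with hairpin 2 and 8.64 with hairpin 5, against 8.98 on the control array (differences −0.15 and −0.34). Its other expressed probe sets differed by 0.09 and −0.12 (203214_x_at) and by −0.05 and 0.13 (210559_s_at), so the direction was not shared among them. CCNB1, the main B-type cyclin, read 9.76 with hairpin 2 and 9.59 with hairpin 5, against 9.54 on the control array. Its dimmer probe set (228729_at) lay on the other side of the control, by −0.14 and −0.15. CCNA2, the cyclin of S phase and G2, read 7.40 with hairpin 2 and 7.39 with hairpin 5, against 7.59 on the control array. That small difference also turned with the probe set: 203418_at read 6.88 with hairpin 2 and 7.08 with hairpin 5, against 6.53 on the control array. CDC25C, a CDK1-activating phosphatase, had the widest distance between hairpins in this group, with 6.09 for hairpin 2 and 5.66 for hairpin 5, against 6.02 on the control array. The B-type cyclin CCNB2 (−0.094 and −0.050), the phosphatase CDC25B (−0.041 and 0.052) and the CDK-binding subunit CKS2 (−0.095 and −0.015) lay nearest to the control.

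Of the 9 kinetochore and checkpoint genes, 6 lay below the control on both hairpin arrays (66.7%, against 32.3% of all genes tested). On both arrays 1 lay above it (11.1%, against 29%), and 2 were split (22.2%, against 38.7%). Taken singly, 6 lay below it with hairpin 2 and 8 with hairpin 5. Over all 11865 genes tested, 5466 lay below the control with hairpin 2 and 6758 with hairpin 5. The medians were −0.07 with hairpin 2 and −0.12 with hairpin 5. BUB1, a checkpoint kinase that also marks the centromere for shugoshin, read 6.50 with hairpin 2 and 6.16 with hairpin 5, against 6.84 on the control array. CENPA, the histone H3 variant that defines centromeres, read 7.57 with hairpin 2 and 7.19 with hairpin 5, against 7.90 on the control array. Both were below the control on each hairpin array, and at least 1.5-fold below it with hairpin 5, along with KIF14 and ANLN (4 members, 9.76%, against 9.79% of all genes tested). The mean differences were −0.50 ± 0.24 for BUB1 and −0.52 ± 0.27 for CENPA (SD, n = 2 hairpins), and limma gave an adjusted p of 0.999 for each. The BUB1 values rest on 1 expressed probe set: its other 4 lay below the bound (mean levels 2.38 to 3.02), 2 of them higher with both hairpins, and the mean difference over all 5 averaged was −0.050. CENPA was read by 1 probe set of the kind whose name ends in _x_at, which can bind related transcripts.

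MAD2L1, which holds CDC20 in the checkpoint complex, was lower with both hairpins on each of its 3 expressed probe sets. Its brightest read 9.21 with hairpin 2 and 9.42 with hairpin 5, against 9.50 on the control array. The next (203362_s_at) read 9.00 with hairpin 2 and 9.14 with hairpin 5, against 9.43 on the control array, and the dimmest (236312_at) read 3.24 with hairpin 2 and 3.65 with hairpin 5, against 3.96 on the control array. TTK, the kinase at the head of the checkpoint, differed by −0.12 and −0.41, NUF2 by −0.02 and −0.43, and BUB1B by −0.07 and −0.09. NDC80, which with NUF2 forms the microtubule-binding arm of the kinetochore, read 7.71 with hairpin 2 and 7.08 with hairpin 5, against 7.20 on the control array. The hairpins lay on different sides of the control for NDC80, while its partner NUF2 was almost at the control with hairpin 2. In both genes hairpin 2 read above hairpin 5, by 0.63 for NDC80 and 0.41 for NUF2. CENPF, a large outer kinetochore protein, read 8.04 with hairpin 2 and 8.07 with hairpin 5, against 7.92 on the control array. A dim CENPF probe set (209172_s_at) was mixed, at −0.26 and 0.05. The kinetochore motor CENPE differed by 0.12 and −0.08.

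**Figure D3:**
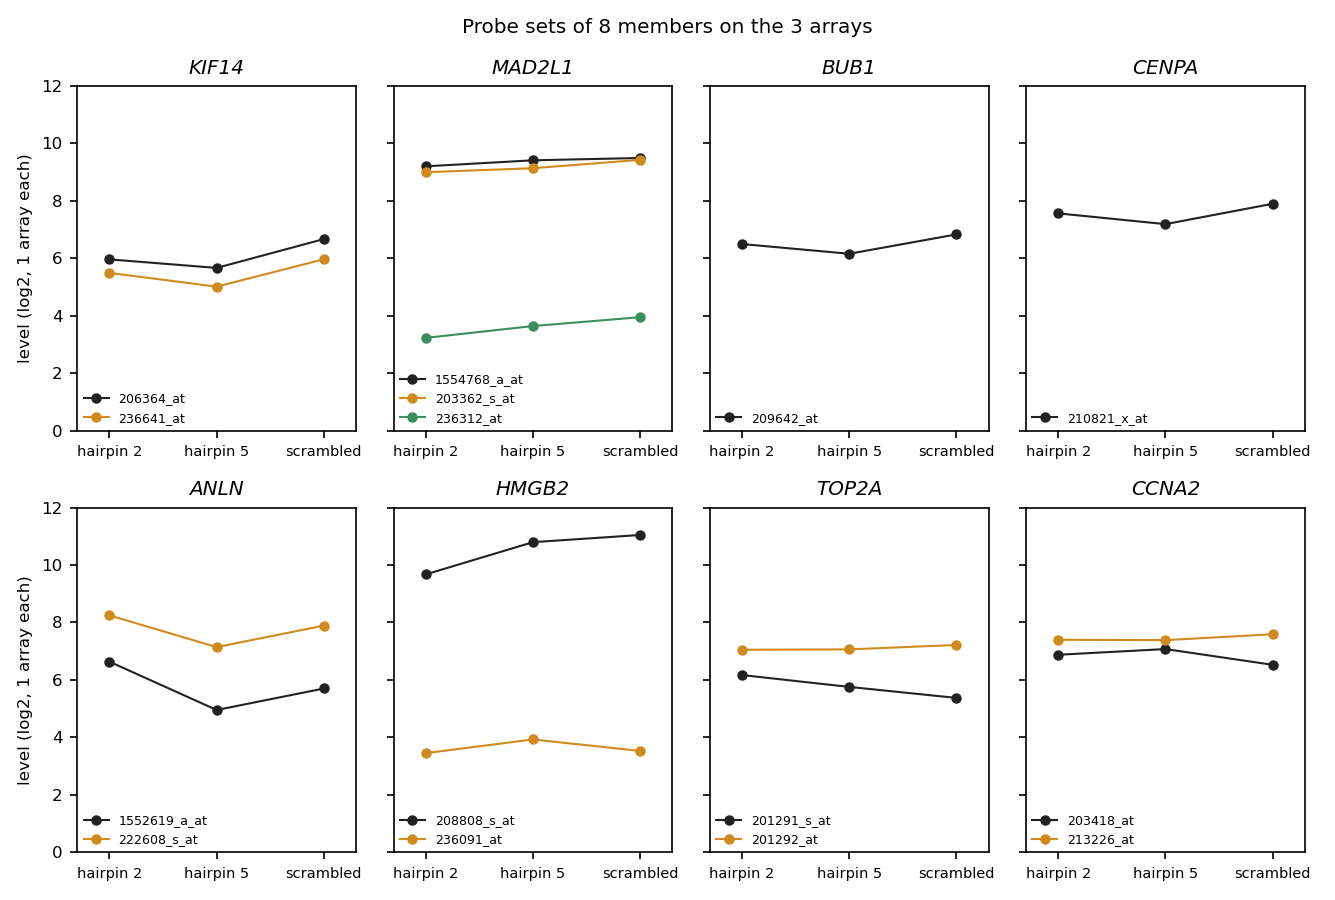
Log2 level of each expressed probe set of 8 members (y axis) on the hairpin 2, hairpin 5 and scrambled arrays (x axis, 1 point each; lines join points of 1 probe set). Both KIF14 probe sets and all 3 of MAD2L1 are highest on the scrambled array, both ANLN probe sets are highest with hairpin 2 and lowest with hairpin 5, and those of TOP2A and CCNA2 run against each other.

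The APC/C group held members on both sides. UBE2C, the ubiquitin-conjugating enzyme that works with the APC/C, read 10.36 with hairpin 2 and 10.38 with hairpin 5, against 10.66 on the control array, and the differences were nearly equal (−0.30 and −0.28). CDC20, the activator that starts anaphase, read 10.40 with hairpin 2 and 10.15 with hairpin 5, against 10.02 on the control array. PTTG1, the securin that is destroyed at anaphase, read 10.90 with hairpin 2 and 11.16 with hairpin 5, against 11.00 on the control array. PTTG1 was also read only by a probe set whose name ends in _x_at.

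Spindle genes were balanced, with 3 of 10 lower (30%, against 32.3% of all genes tested) and 3 higher (30%, against 29%). The other 4 were mixed (40%, against 38.7%), and none was 1.5-fold from the control with either hairpin. AURKA, the kinase of spindle poles, read 8.30 with hairpin 2 and 8.45 with hairpin 5, against 8.74 on the control array. TPX2, which activates AURKA and brings it to the spindle, stood on the other side, with 8.34 for hairpin 2 and 8.49 for hairpin 5, against 8.07 on the control array. The other expressed AURKA probe set (204092_s_at) differed by −0.04 and 0.34, so the lower reading of AURKA rests on 1 probe set. KIF11, the kinesin that pushes spindle poles apart, read 4.81 with hairpin 2 and 4.92 with hairpin 5, against 4.73 on the control array, and CKAP2, a microtubule-associated protein, 7.08 with hairpin 2 and 6.89 with hairpin 5, against 7.14 on the control array. HMMR, a spindle assembly factor, read 8.03 with hairpin 2 and 7.63 with hairpin 5, against 7.87 on the control array. Its probe set 209709_s_at was lower with both hairpins (−0.22 and −0.57). The spindle pole genes ASPM (0.24 and −0.08) and NEK2 (−0.11 and −0.03), the microtubule depolymerase KIF2C (0.01 and −0.14) and the spindle protein DLGAP5 (0.10 and 0.01) lay near the control. Another KIF2C probe set (211519_s_at) was higher with both hairpins (0.17 and 0.11). PLK1, the polo-like kinase, read 3.99 with hairpin 2 and 3.83 with hairpin 5, against 3.92 on the control array. These levels lie not far above the bound, where a probe set says little about its gene.

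Among the 8 cytokinesis and passenger genes, 4 were lower with both hairpins (50%, against 32.3% of all genes tested). A further 3 were higher (37.5%, against 29%) and 1 lay on different sides. KIF14, a kinesin needed for the final separation of daughter cells, read 5.97 with hairpin 2 and 5.67 with hairpin 5, against 6.68 on the control array. Its other probe set (236641_at) read 5.50 with hairpin 2 and 5.02 with hairpin 5, against 5.97 on the control array. Both probe sets were thus lower on both hairpin arrays, and further from the control with hairpin 5. For the brighter probe set this came to 1.63-fold lower for hairpin 2 and 2.01-fold for hairpin 5, a mean difference of −0.86 ± 0.21 (SD, n = 2 hairpins). The other was 1.39-fold and 1.94-fold lower. In limma the unadjusted p was 0.0257 and the adjusted p 0.999. An exact permutation over the 3 possible choices of control array cannot go below p = 0.333.

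KIF23, the kinesin of the centralspindlin complex, read 6.02 with hairpin 2 and 5.66 with hairpin 5, against 6.20 on the control array. CDCA8 (borealin), a subunit of the chromosomal passenger complex, read 7.20 with hairpin 2 and 7.03 with hairpin 5, against 6.72 on the control array. By the brightest probe sets and the smaller of the differences with each hairpin, it was the member furthest above the control. Dimmer probe sets of TOP2A (201291_s_at, 0.795 and 0.384), BIRC5 (210334_x_at, 0.390 and 0.448) and CCNA2 (203418_at, 0.350 and 0.548) lay further above by that measure. The partners of CDCA8 did not follow it together: the kinase AURKB differed by −0.18 and −0.29, and BIRC5 (survivin) by 0.18 and 0.10. A dim AURKB probe set (239219_at) was mixed, at 0.17 and −0.04. BIRC5 had 4 expressed probe sets, of which 3 were higher with both hairpins and 1555826_at was lower with both (−0.20 and −0.20). PRC1, which bundles microtubules of the midzone and binds KIF14, read 8.80 with hairpin 2 and 8.82 with hairpin 5, against 8.61 on the control array, so PRC1 and KIF14 lay on different sides of the control. KIF20A, another midzone kinesin, differed by −0.02 and −0.09.

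ANLN (anillin), the scaffold of the contractile ring, lay on different sides of the control with the 2 hairpins. Its brighter probe set read 8.25 with hairpin 2 and 7.14 with hairpin 5, against 7.89 on the control array. The other (1552619_a_at) read 6.64 with hairpin 2 and 4.96 with hairpin 5, against 5.70 on the control array. Hairpin 2 was highest, hairpin 5 lowest and the control between them on both probe sets, and the dimmer one was at least 1.5-fold from the control in each direction (1 of 61 expressed member probe sets, 1.64%, against 0.281% of all named ones). Between the hairpins, which does not use the control, hairpin 2 was 2.15-fold above hairpin 5 on the brighter probe set and 3.20-fold on the other. Such a distance was found for few members by the brightest probe set of each. At least 2-fold apart between the hairpins were 2 of 41 (4.88%, against 3.17% of all genes tested), ANLN and HMGB2. With NDC80, 3 were at least 1.5-fold apart (7.32%, against 14.7%).

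HMGB2, a chromatin protein of the high mobility group that is abundant in dividing cells, was the member furthest from the control on a single array. It read 9.67 with hairpin 2 and 10.79 with hairpin 5, against 11.04 on the control array, a 2.59-fold lower level for hairpin 2 and a 1.19-fold lower one for hairpin 5. By the brightest probe sets, it was the 1 member at least 2-fold lower with hairpin 2 (2.44%, against 0.573% of all genes tested). It and KIF14 were then the 2 at least 1.5-fold lower (4.88%, against 3.14%). The distance between the hairpins was as wide as for ANLN but in the other direction (hairpin 2 minus hairpin 5, −1.12). A dim probe set (236091_at) differed by −0.08 and 0.40. TOP2A, the topoisomerase that untangles sister chromatids, read 7.05 with hairpin 2 and 7.06 with hairpin 5, against 7.22 on the control array. Its probe set 201291_s_at read 6.17 with hairpin 2 and 5.76 with hairpin 5, against 5.38 on the control array, the opposite direction. FOXM1, the transcription factor that activates many of these genes, read 5.97 with hairpin 2 and 6.16 with hairpin 5, against 5.76 on the control array, by 1 _x_at probe set. CDCA3, an adaptor of a ubiquitin ligase that promotes mitotic entry, read 7.81 with hairpin 2 and 7.57 with hairpin 5, against 7.47 on the control array. Its probe set 223307_at lay on different sides of the control, by 0.36 and −0.25, and was 1.53-fold higher with hairpin 2 than with hairpin 5.

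Agreement between probe sets of 1 gene was examined for all members. Of the 78 probe sets, 61 lay at or above the bound and 17 below it. Of the 16 members with at least 2 expressed probe sets, only KIF14 and MAD2L1 had all of them lower with both hairpins, and none had all of them higher with both. In 4 members (CCNA2, CCNB1, BIRC5 and TOP2A) some probe sets were lower with both hairpins and others higher with both. In the other 10 at least 1 probe set was mixed, and in ANLN and ASPM every expressed probe set had hairpin 2 above and hairpin 5 below the control. Agreement between probe sets was not counted over all genes, so these counts have no background and are not shown to be particular to the members. Counted as probe sets, 26 of 61 were lower with both hairpins (42.6%, against 31.2% of 19251 named probe sets above the bound) and 16 higher (26.2%, against 30.6%). The other 19 were mixed (31.1%, against 38.2%). The remaining 25 members had 1 expressed probe set each.

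**Figure D4:**
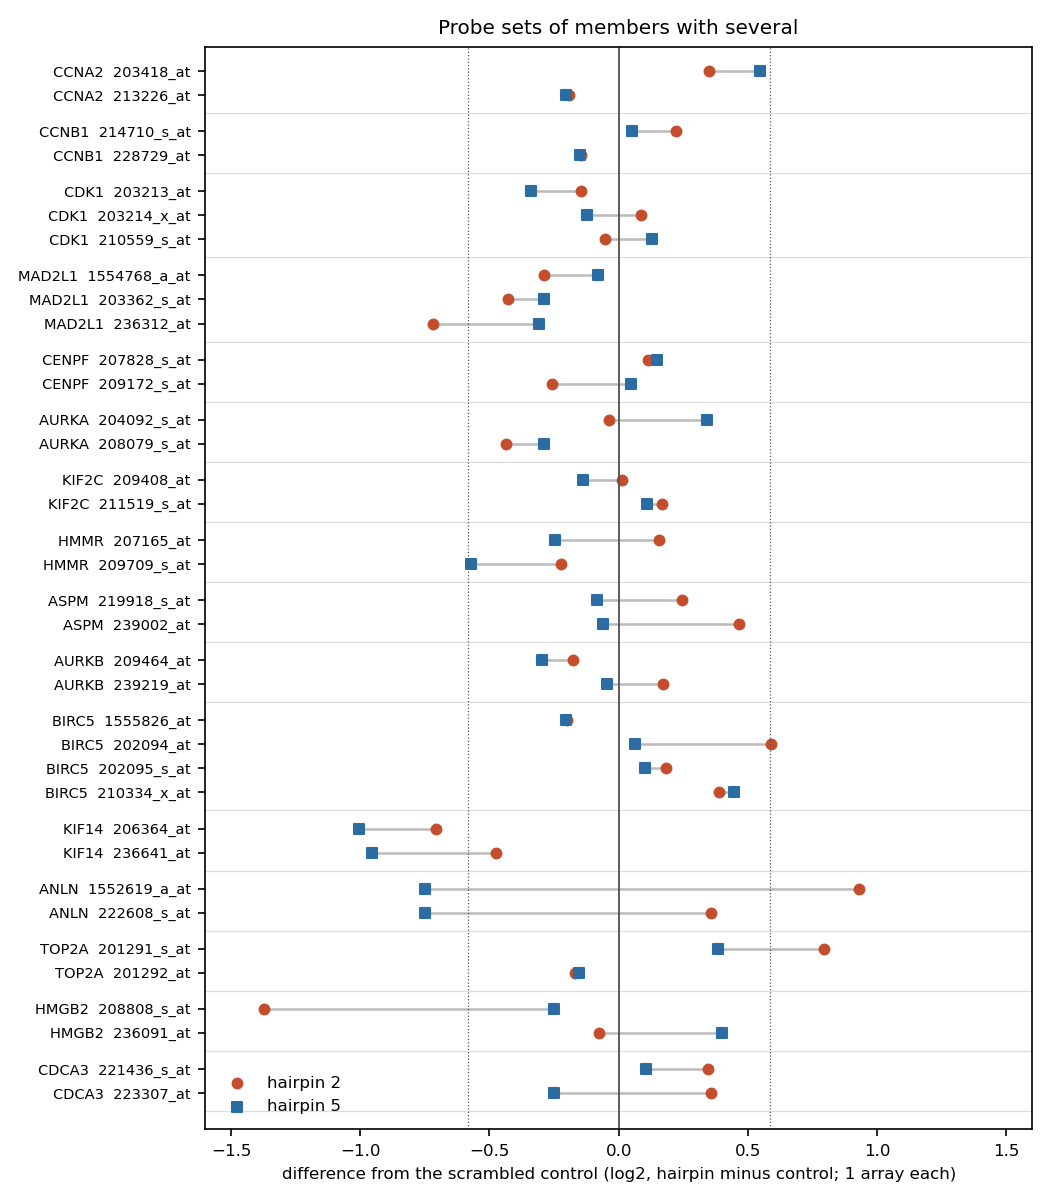
Difference from the scrambled control (x axis, log2, hairpin minus control) for each expressed probe set of the 16 members with at least 2, with hairpin 2 (circles) and hairpin 5 (squares), 1 array each; dotted lines mark 1.5-fold. KIF14 and MAD2L1 have all points left of 0, and the probe sets of CCNA2, CCNB1, BIRC5 and TOP2A lie on both sides.

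Other genes of the mitotic machinery were counted on 6 further lists. Of 128 genes, 113 were tested: 46 lay below the control with each hairpin (40.7%, against 32.3% of all genes tested), 26 above it with each (23%, against 29%) and 41 were split. Over these genes the median was 0.01 for hairpin 2 and −0.13 for hairpin 5. None passed limma over all genes and 1 had an unadjusted p under 0.05, CDC27, a core APC/C subunit. It read 9.14 with hairpin 2 and 9.37 with hairpin 5, against 8.44 on the control array, and was the 1 gene of these lists at least 1.5-fold from the control in 1 direction with both hairpins. Of its other probe sets, 217879_at was mixed, at 0.43 and −0.20, and 217880_at lay near the control, at 0.10 and 0.09. The dimmest (217881_s_at) was higher with both hairpins, at 0.81 and 0.31. Further subunits of the kinetochore and centromere had 13 of 25 lower with both (52%) and 4 higher (16%), with medians of −0.044 for hairpin 2 and −0.30 for hairpin 5. With hairpin 2 alone 13 lay below the control and 12 above it, and with hairpin 5 alone 21 lay below and 4 above. Of the 11865 genes tested, 5466 lay below it with hairpin 2 and 6758 with hairpin 5, with medians of 0.03 and −0.06. Among the lower genes of this list was HJURP, the chaperone that deposits CENPA, at 6.75 with hairpin 2 and 6.80 with hairpin 5, against 7.22 on the control array. MIS18A, which prepares centromeres for CENPA loading, read 7.26 with hairpin 2 and 7.16 with hairpin 5, against 7.55 on the control array. On the other side, KNTC1, a kinetochore protein of the spindle checkpoint, read 4.68 with hairpin 2 and 4.80 with hairpin 5, against 4.40 on the control array, and the centromere protein CENPO read 5.29 with hairpin 2 and 5.17 with hairpin 5, against 4.89 on the control array. These 4 were the genes of the list furthest from the control in each direction, by the smaller of the differences with each hairpin, and none passed limma's test.

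Further spindle and cytokinesis genes had 15 of 26 below the control with each hairpin (57.7%) and 3 above it (11.5%). Over all genes tested, 32.3% were lower with both, 29% higher and 38.7% mixed. The lower genes were led by the kinesin KIF15 at 5.53 with hairpin 2 and 4.96 with hairpin 5, against 5.99 on the control array. Condensin and cohesin genes were mostly mixed, 14 of 19, with 4 lower (21.1%) and 1 higher (5.26%). Genes of mitotic entry and exit had 9 of 18 higher with both (50%) and 5 lower (27.8%). The proliferation marker MKI67 was among the higher, at 8.60 with hairpin 2 and 8.38 with hairpin 5, against 8.11 on the control array, and CKS1B, the paralog of CKS2, among the lower, at 10.28 with hairpin 2 and 10.16 with hairpin 5, against 10.67 on the control array. The APC/C list had 7 of 16 lower (43.8%) and 5 higher (31.2%). The MuvB list had 4 of 9 higher (44.4%) and 2 lower (22.2%). The higher were led by LIN52, a MuvB subunit, at 5.46 with hairpin 2 and 5.37 with hairpin 5, against 4.86 on the control array.

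**Figure D5:**
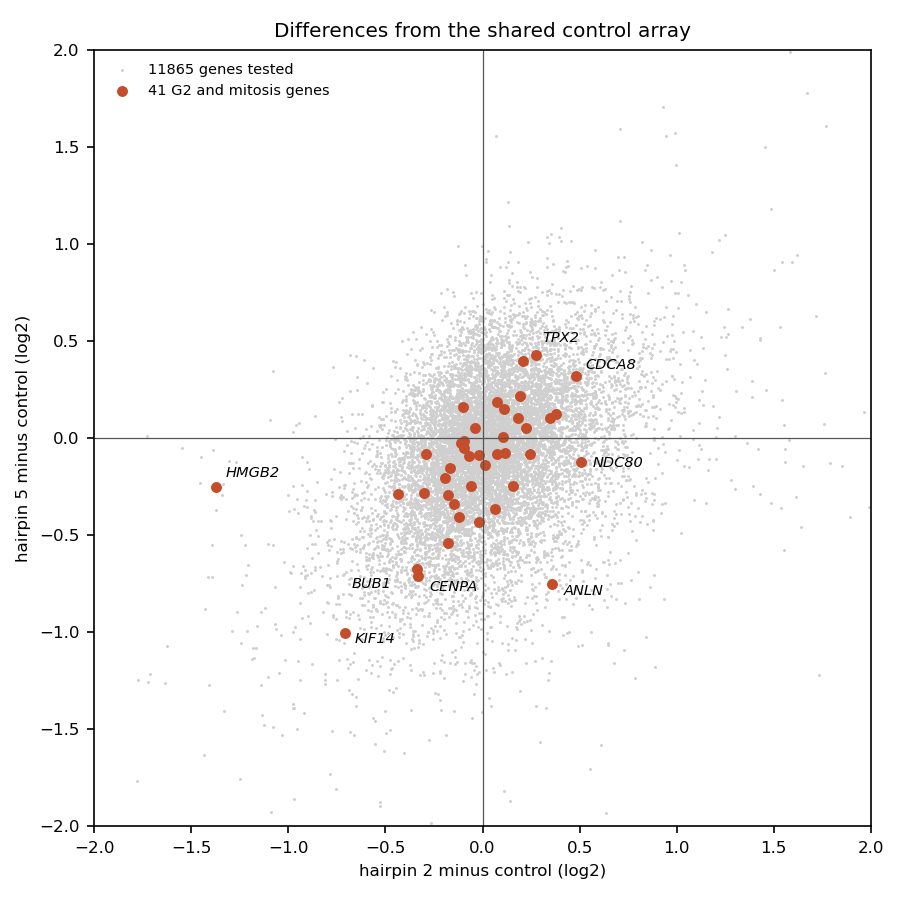
Difference from the control on the log2 scale with hairpin 2 (x axis) and hairpin 5 (y axis) for the 41 G2 and mitosis genes (large points) and all 11865 genes tested (small points); 46 genes lie beyond the axis limit of 2. Both axes use the same control array. The members lie within the cloud, with HMGB2, KIF14 and ANLN at its edge.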

How the data were processed

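Gene expression was measured on 3 single-colour arrays of biotin-labelled cRNA. The deposited values are log2 levels per probe set made by the authors; the submitters' processing notes name RMA and Affymetrix Expression Console. Versions, settings and centring are not given in the sources used here, and a log base of 2 was taken from the range of values (1.95 to 14.06). RMA values carry no detection call, so low levels may be background.

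Probe sets were named through the platform annotation, and symbols were checked in a RefSeq gene table by identifier (41037 of 41091 probe sets with 1 gene matched). Each gene was represented by its probe set of highest mean, and 11865 genes at or above the 40th percentile (3.28) entered a two-sided test in limma 3.58.1 under R 4.3.3 (lmFit, eBayes), and p-values were adjusted over all of them by Benjamini-Hochberg. Each gene leaves 1 residual degree of freedom (5.77 after moderation), and the control array is taken to vary as the hairpin arrays do. The test was tried on simulated data: with noise drawn from each gene's own hairpin difference it called no changed gene at any effect tried, and with the median noise of genes at a like level, a model chosen after that outcome, it called the larger changes but not the smallest. An absence of calls therefore says little about changes of the size seen here. Probe sets assigned to several genes were left out.

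Members, role groups and lists were chosen with earlier results of these data known. All members are named. Values on every array are given, in each role group, for up to 2 members lower and up to 2 higher with both hairpins with the largest smaller difference, for the widest difference between hairpins, and for CDK1, CCNB1, FOXM1 and UHRF1; MAD2L1, PLK1 and the further probe sets were added after their values were seen. Of the other lists, up to 2 genes in each direction could be named. Alternatives were other filters, the mean of probe sets, no _x_at probe sets, median centring, cyclic loess, other variance priors and leaving out each hairpin. Promoter windows came from RefSeq (GRCh38.p14); the motif search was added after the expression values were seen, and 3 motif sets were tried.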

Additional observations from a re-analysis of the deposited data

Results flagged for a closer look

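The ANLN probe set 1552619_a_at was higher than the control with hairpin 2 and lower with hairpin 5, by at least 1.5-fold each way. It read 6.64 with hairpin 2 and 4.96 with hairpin 5, against 5.70 on the control array, and hairpin 2 minus hairpin 5 was 1.68 on the log2 scale. Of 61 expressed probe sets of the members this was the 1 that did so (1.64%), and 54 of 19251 named probe sets did (0.281%). The difference was not tested, since each hairpin had 1 array. The comparison was first made on the brightest probe set of each member, where 0 of 41 met it, and was extended to all expressed probe sets after the ANLN values had been seen.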

How the results depend on the processing

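No member passed limma's adjusted p with no filter, with a filter at the 60th percentile, with probe sets averaged per gene, without _x_at probe sets, after median centring, after cyclic loess, or with an intensity trend or a robust prior, and KIF14 was the 1 member with an unadjusted p under 0.05 in each of these. It was also the 1 member at least 1.5-fold from the control in 1 direction with both hairpins under each scaling, filter and choice of probe sets run. The number of members lower with both hairpins was 20 as reported, 16 with the mean of probe sets, 15 after cyclic loess and 18 after median centring; the number higher was 11 as reported, 13, 12 and 10. The median difference, averaged over the hairpins, was −0.062 as reported and −0.0035 with the mean of probe sets; the cause was not tested. With that mean, the difference averaged over the hairpins changed sign in 6 members: CCNA2, CCNB1, CDC25C, NEK2, KIF2C and TOP2A. CCNB1 and KIF2C then had the hairpins on different sides of the control, as CDC25C and KIF2C had by the brightest probe set. With 1 hairpin left out, lower members numbered 22 to 28, higher members 13 to 19 and members at least 1.5-fold from the control 2 to 4, since 1 hairpin then sufficed for a count, and the median was −0.086 to −0.019. These values have no test. The 22 lower and 19 higher members were those with hairpin 2 kept, where 5466 of the 11865 genes tested were lower and 6360 higher. The 28 lower and 13 higher were those with hairpin 5 kept, where 6758 genes were lower and 5072 higher. Without hairpin 2 the members past 1.5-fold were KIF14, BUB1, CENPA and ANLN, and without hairpin 5 they were KIF14 and HMGB2. Background correction could not be varied from processed values. No paired analysis was possible because there is 1 control array and the labels give no replicate numbers. Without detection calls, differences of dim probe sets such as that of PLK1 cannot be separated from background.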
